A study of Homo sapiens
Mus musculus with 16 samples.

Results

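Phenelzine added to nab-paclitaxel was examined in xenograft tumours by setting the 4 libraries of mice given both drugs against the 4 libraries of mice given nab-paclitaxel alone, 8 of the 16 libraries in the series. They were chosen by their labelled treatment. The tumours grew from MDA-MB-231, an established human triple-negative breast cancer line, placed in the mammary fat pad of Balb/c nude mice, which lack a working thymus and therefore most T cells. Every mouse received 2000000 cells in 50 µl of PBS and Matrigel, and its tumour was removed on day 50. Combination mice had intraperitoneal nab-paclitaxel at 30 mg/kg on days 15, 22 and 29 and phenelzine at 40 mg/kg every day from day 15. Nab-paclitaxel mice had the same 3 doses of nab-paclitaxel and no phenelzine. Phenelzine mice had only the daily phenelzine, and vehicle mice only the vehicle. These groups of 4 mice each enter below where phenelzine is compared without the taxane. The age and sex of the mice are not given in the labels, and whether vehicle was also given to the single-drug mice is not stated. The sample details used here give the day of harvest but not its hour or order. Differences between groups in these were not tested.

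Nab-paclitaxel is paclitaxel bound to albumin, and paclitaxel stabilises microtubules and stalls dividing cells in mitosis. Phenelzine is an irreversible inhibitor of the monoamine oxidases, used as an antidepressant, and it also inhibits LSD1, a flavin-dependent enzyme that removes methyl groups from histone H3 and takes part in gene repression. In such a xenograft the cancer cells are human and the vessels, fibroblasts and leukocytes are mouse, so that the species of a transcript shows which compartment it came from, which holds only where each read was given to the right species, and that was not tested. The genes are known in the files only by Ensembl identifiers, and no table at hand pairs these with symbols (0 human and 0 mouse identifiers were matched). No gene name or role is therefore given, the gene lists and cell type markers could not be looked up, the labelled line and tissue could not be checked against markers, and no sequence is shown. Only 3 identifiers are printed, 1 that rose and 2 that fell, and which ones was decided after their values were seen.

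The combination libraries held 11.1, 21.6, 16 and 28.8 M human counts (1 M is 1000000) and 27.4, 19.5, 20.3 and 6.6 M mouse counts in mice 1 to 4. The nab-paclitaxel libraries held 15.4, 32.7, 32 and 23.8 M human counts and 22.9, 9.97, 8.53 and 17.2 M mouse counts. Mouse counts, which track host RNA in the library, made up 48.3% ± 22.1 of all counts with the combination and 36.5% ± 18.1 with nab-paclitaxel (SD, n = 4 each). This mouse share ran from 18.6% to 71.2% with the combination and from 21.0% to 59.7% with nab-paclitaxel, so the groups overlapped over most of their range. The difference of 11.8 percentage points was smaller than the SD within either group (exact permutation test, two-sided, p = 0.457, where 0.0286 is the smallest p this design allows). It was 4.12 points without combination 1 and 21.7 points without combination 4. In whole tumours, a change in the number of host or tumour cells and a change in the RNA per cell cannot be told apart.

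**Figure D1:**
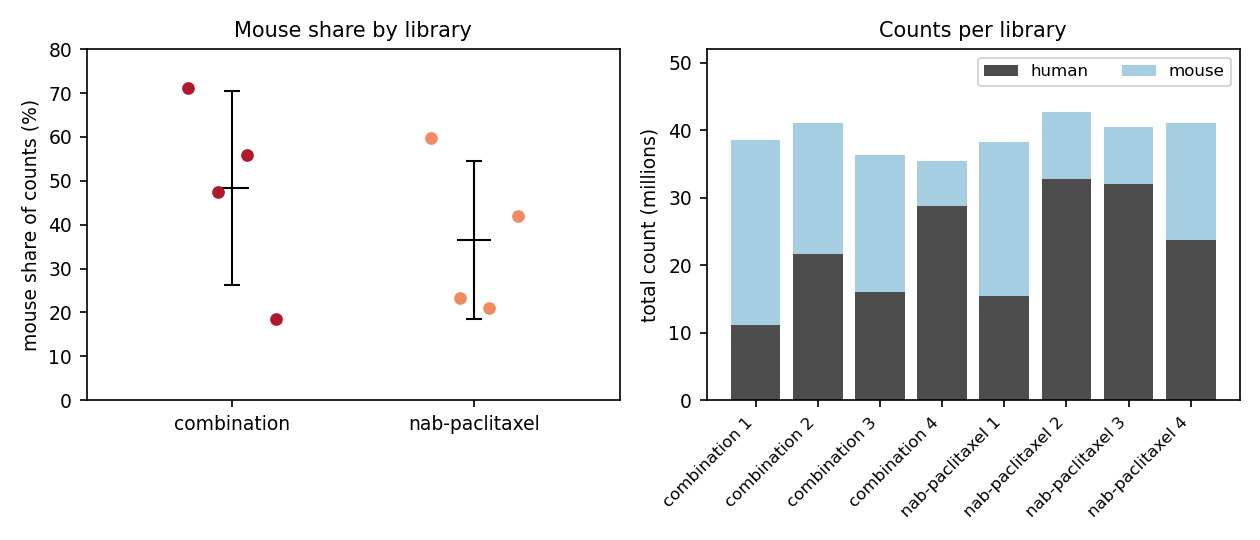
Left, mouse share of all counts in percent for each library (dots), with the mean and SD, in the combination and nab-paclitaxel groups; right, total human and mouse counts of the same libraries in M. The combination libraries lie between 18.6% and 71.2% and the nab-paclitaxel libraries between 21.0% and 59.7%.

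Combination tumours were, in their human genes, mostly less like each other than like nab-paclitaxel tumours. Across the human genes, log2 CPM (counts scaled to library size, here with TMM factors) correlated at 0.896 to 0.968 between pairs of combination libraries, at 0.916 to 0.977 between pairs of nab-paclitaxel libraries and at 0.895 to 0.976 between libraries of different groups. The medians were 0.926 within the combination, 0.960 within nab-paclitaxel and 0.956 between the groups. Combination 3 was closer to nab-paclitaxel 1 (r = 0.972) than to combination 2 (r = 0.899), and combination 4 was closer to nab-paclitaxel 2 (r = 0.976) than to combination 1 (r = 0.924). Combination 1 and 3 and nab-paclitaxel 1 and 4 stood apart from the other libraries in the earlier results of these data, and they held mouse shares of 71.2%, 55.9%, 59.7% and 41.9%. The combination libraries without them, 2 and 4, had 47.4% and 18.6%, and the nab-paclitaxel libraries 2 and 3 had 23.4% and 21.0%. The genes past the threshold are therefore also given without these 4 libraries. In the mouse genes the correlations were 0.890 to 0.936 within the combination, 0.922 to 0.959 within nab-paclitaxel and 0.869 to 0.965 between the groups.

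**Figure D2:**
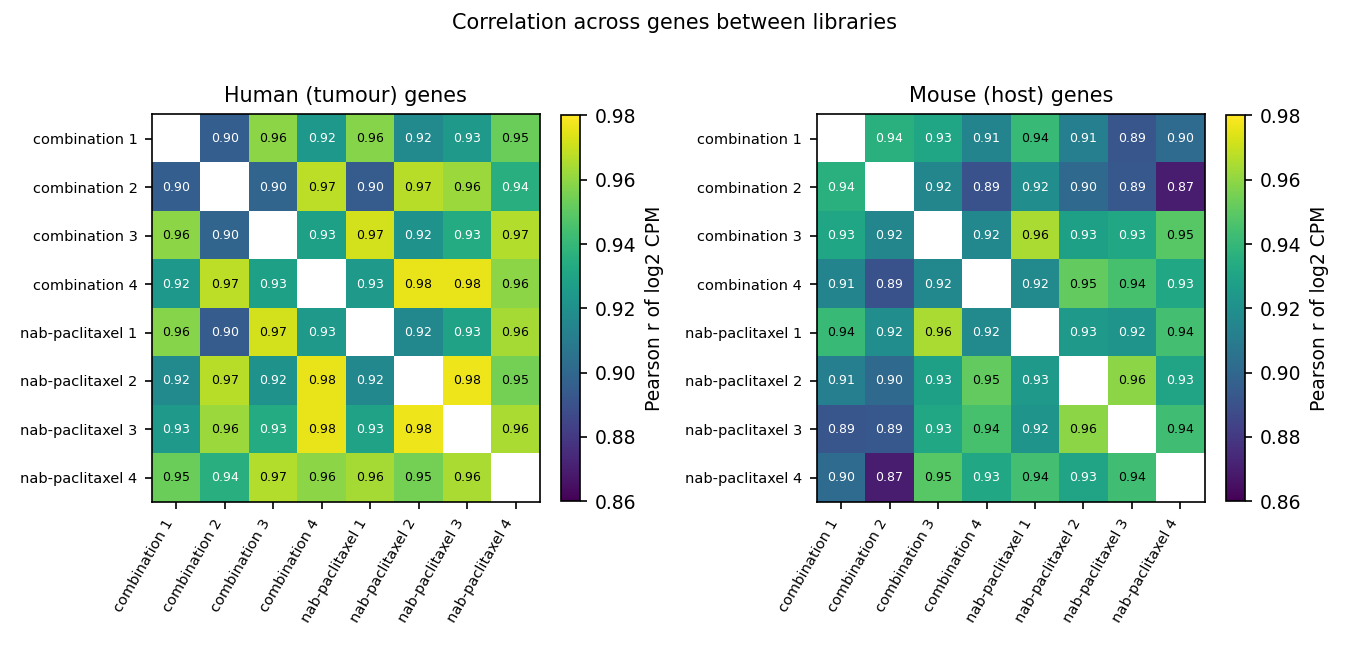
Pearson correlation of log2 CPM across all tested genes between each pair of the 8 libraries, for human genes (left) and mouse genes (right); colour and number give r. For human genes the pairs between groups (0.895 to 0.976) cover the range of the pairs within the combination (0.896 to 0.968).

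In the human genes the combination tumours spread more widely around their own mean than the other groups. The median over genes of the SD of log2 CPM was 0.431 in the 4 combination libraries and 0.352 in the 4 nab-paclitaxel libraries, against 0.251 in the phenelzine and 0.237 in the vehicle libraries. For mouse genes it was 0.326 with the combination against 0.279 with nab-paclitaxel. The phenelzine libraries had 0.301, against 0.446 in the vehicle libraries. These medians are descriptions, and the differences between them were not tested. Depth also differed between the groups. Human totals were 11.1 to 28.8 M with the combination, 15.4 to 32.7 M with nab-paclitaxel, 30.2 to 34.5 M with phenelzine and 23.7 to 33.5 M with vehicle. Mouse totals were 3.46 to 6.18 M with phenelzine and 5.21 to 14.4 M with vehicle. The part of depth in these medians was not tested.

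Few genes passed the threshold in either compartment when phenelzine was added to nab-paclitaxel. Of 18131 human genes tested, 0 rose and 1 fell (0.00552% called; edgeR quasi-likelihood test, adjusted p under 0.05). Of 15074 mouse genes, 1 rose (0.00663%) and 2 fell (0.0133%), 0.0199% in all. At an unadjusted p under 0.05 there were 533 human genes (2.94%), 261 higher (1.44%) and 272 lower (1.5%). There were 833 such mouse genes (5.53%), 495 higher (3.28%) and 338 lower (2.24%). The 4 combination libraries did not overlap the 4 nab-paclitaxel libraries in 279 human genes (1.54%), of which 126 were higher (0.695%) and 153 lower (0.844%). They did not overlap in 584 mouse genes (3.87%), of which 333 were higher (2.21%) and the rest lower (1.67%). If the groups did not differ, a fraction of 0.05 of genes would be expected at that unadjusted p. A fraction of up to 0.0286 would be expected without overlap. DESeq2 called 10 human genes (0.0552%), 4 higher and 6 lower, and 46 mouse genes (0.307%), 37 higher and 9 lower. Of these DESeq2 calls, 4 of the 10 human and 31 of the 46 mouse genes had groups that did not overlap, and the 6 lower human genes had a median fitted log2 fold change of -21.7. Voom with quality weights called 0 human and 10 mouse genes (0.0663%), 6 of these higher and 4 lower. All 3 mouse genes called by edgeR were called by both other tools, and 9 of voom's 10 were among the 46 of DESeq2. The 1 human gene was called by DESeq2 but not by voom. Leaving out 1 library at a time gave 0 human genes without combination 4 and 1 otherwise. It gave 1 to 5 mouse genes, 1 without nab-paclitaxel 1 or nab-paclitaxel 4 and 5 without combination 4.

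**Figure D3:**
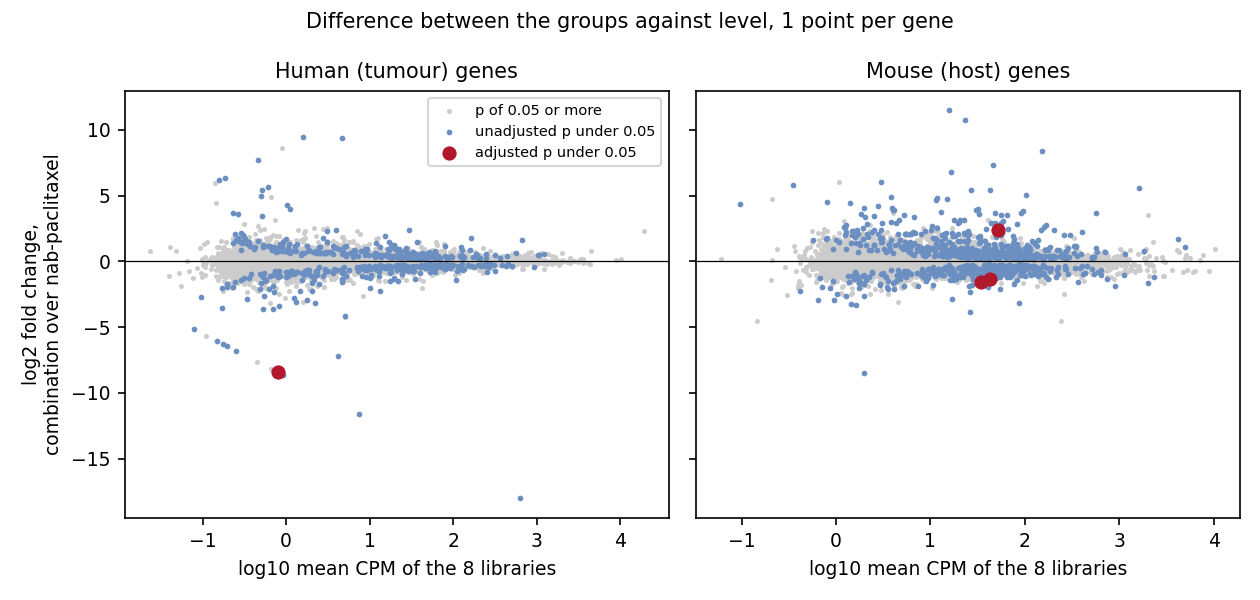
Log2 fold change of the combination over nab-paclitaxel (vertical) against log10 of the mean CPM of the 8 libraries (horizontal), 1 point per tested gene, for human (left) and mouse genes (right). Blue points have an unadjusted p under 0.05 and red points, 1 human and 3 mouse genes, an adjusted p under 0.05 in edgeR; 2 human genes and 1 mouse gene at 0 in all 8 libraries are not drawn.

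For most genes at moderate and high levels the fit of all 16 libraries put a limit on how large a difference could be. The median absolute log2 fold change was 0.157 in human and 0.199 in mouse genes. An approximate 95% interval, made from the fold change and its standard error, lay wholly within a 2-fold change in either direction for 11310 human genes (62.4%) and 8943 mouse genes (59.3%). This depended on level. Among human genes with a mean of 10 to 100 CPM over the 8 libraries it did so for 6845 of 7972 (85.9%), and at 100 CPM or more for 2138 of 2314 (92.4%). Under 1 CPM it did so for 210 of 3342 (6.28%), so that the interval did not exclude a 2-fold difference for most of those genes. In mouse genes the shares were 74.5% of 8413 genes at 10 to 100 CPM, 73.3% of 2180 at 100 CPM or more, 25.6% of 4188 at 1 to 10 CPM and 1.02% of 293 (3 genes) under 1 CPM. These intervals are per gene and carry no correction for the number of genes. They rest on 1 estimate of spread shared by all 16 libraries. In human genes the median SD was higher with the combination (0.431) and nab-paclitaxel (0.352) than with phenelzine (0.251) or vehicle (0.237). The human intervals may therefore be too narrow for this comparison.

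Host gene ENSMUSG00000055866 was the one gene that rose by edgeR's test. It stood at 109, 119, 72.9 and 50.0 CPM in combination tumours 1 to 4, against 12, 18.7, 23.4 and 14.7 CPM in nab-paclitaxel tumours 1 to 4. The lowest combination library, number 4, was still above the highest nab-paclitaxel library, number 3, by more than the range of the nab-paclitaxel group. The means were 87.8 ± 32.1 CPM with the combination and 17.2 ± 4.98 CPM with nab-paclitaxel (SD, n = 4 each). That is a 5.13-fold difference, with a log2 fold change of 2.36 (SE 0.298, 95% interval 1.72 to 3.0, edgeR adjusted p = 0.00857). Leaving out nab-paclitaxel 1 or nab-paclitaxel 4 ended the call (edgeR adjusted p = 0.0593 and 0.0617), and the log2 fold change stayed between 2.18 and 2.54 whichever library was left out. Combination 4, the lowest of its group here, also had the lowest mouse share of the group. With the mouse share as a covariate the log2 fold change was 2.27 and the edgeR adjusted p = 0.0681.

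Host gene ENSMUSG00000020522 fell. It stood at 20.8, 18.6, 23.2 and 33.7 CPM in combination tumours 1 to 4, against 53.6, 63.2, 62.4 and 67.4 CPM in nab-paclitaxel tumours 1 to 4. The groups were well separated, and the highest combination library was again number 4. The means were 24.1 ± 6.67 CPM with the combination and 61.7 ± 5.81 CPM with nab-paclitaxel (SD, n = 4 each). The log2 fold change was -1.36 (SE 0.161, 95% interval -1.71 to -1.02, edgeR adjusted p = 0.00755). This call held with any 1 of the 8 libraries left out, with edgeR adjusted p from 0.000158 to 0.0446 and log2 fold changes from -1.57 to -1.25, and of the 3 host calls it alone remained once the mouse share entered as a covariate (log2 fold change -1.28, edgeR adjusted p = 0.00572).

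Host gene ENSMUSG00000055116 also fell. It stood at 18.5, 19.9, 12.9 and 19.9 CPM in combination tumours 1 to 4, against 53.7, 55.8, 43.6 and 52.9 CPM in nab-paclitaxel tumours 1 to 4. The lowest nab-paclitaxel library was more than double the highest combination library. The means were 17.8 ± 3.33 CPM with the combination and 51.5 ± 5.41 CPM with nab-paclitaxel (SD, n = 4 each). The log2 fold change was -1.53 (SE 0.222, 95% interval -2.01 to -1.06, edgeR adjusted p = 0.0285). This was the least secure of the 3 host calls: without any 1 of the 8 libraries it was lost, with edgeR adjusted p from 0.0521 to 0.153, although the log2 fold change stayed between -1.61 and -1.41. With the mouse share as a covariate the edgeR adjusted p = 0.0805.

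Without the 4 libraries that stood apart, when 2 combination libraries were set against 2 nab-paclitaxel libraries, 0 mouse genes passed edgeR's threshold and 510 had an unadjusted p under 0.05. The log2 fold changes of the 3 host genes were then 2.03 for ENSMUSG00000055866, -1.26 for ENSMUSG00000020522 and -1.30 for ENSMUSG00000055116. When only the 8 libraries of both groups were fitted, these were 2.35, -1.37 and -1.54, and none of the 3 passed (edgeR adjusted p = 0.189, 0.189 and 0.0755).

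The human gene that fell was expressed at a low level. It was listed at 0 in all 4 combination libraries, against 2.44, 1.31, 1.94 and 0.754 CPM in nab-paclitaxel tumours 1 to 4. Phenelzine tumours had 1.04 to 2.53 CPM and vehicle tumours 0.968 to 2.39 CPM, so that it was detected in all 12 libraries outside the combination. Taking 3 counts in each combination library as the most that a count of 0 allows, which is 0.274, 0.147, 0.168 and 0.107 CPM, its mean was at least 9.26-fold lower with the combination than with nab-paclitaxel (edgeR adjusted p = 0.0111). Leaving out combination 4, the deepest combination library for human genes, ended the call (edgeR adjusted p = 0.0561), as did fitting the 8 libraries alone (edgeR adjusted p = 1). So did voom (adjusted p = 0.481) and a replicate block (edgeR adjusted p = 0.176). The files hold fewer counts of 1 than of 2 or 3, so that a count of 0 may not be a plain tally of reads and this limit covers counting error only. Without the 4 libraries that stood apart 6 human genes were called, 1 higher and 5 lower, and this gene was among them.

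**Figure D4:**
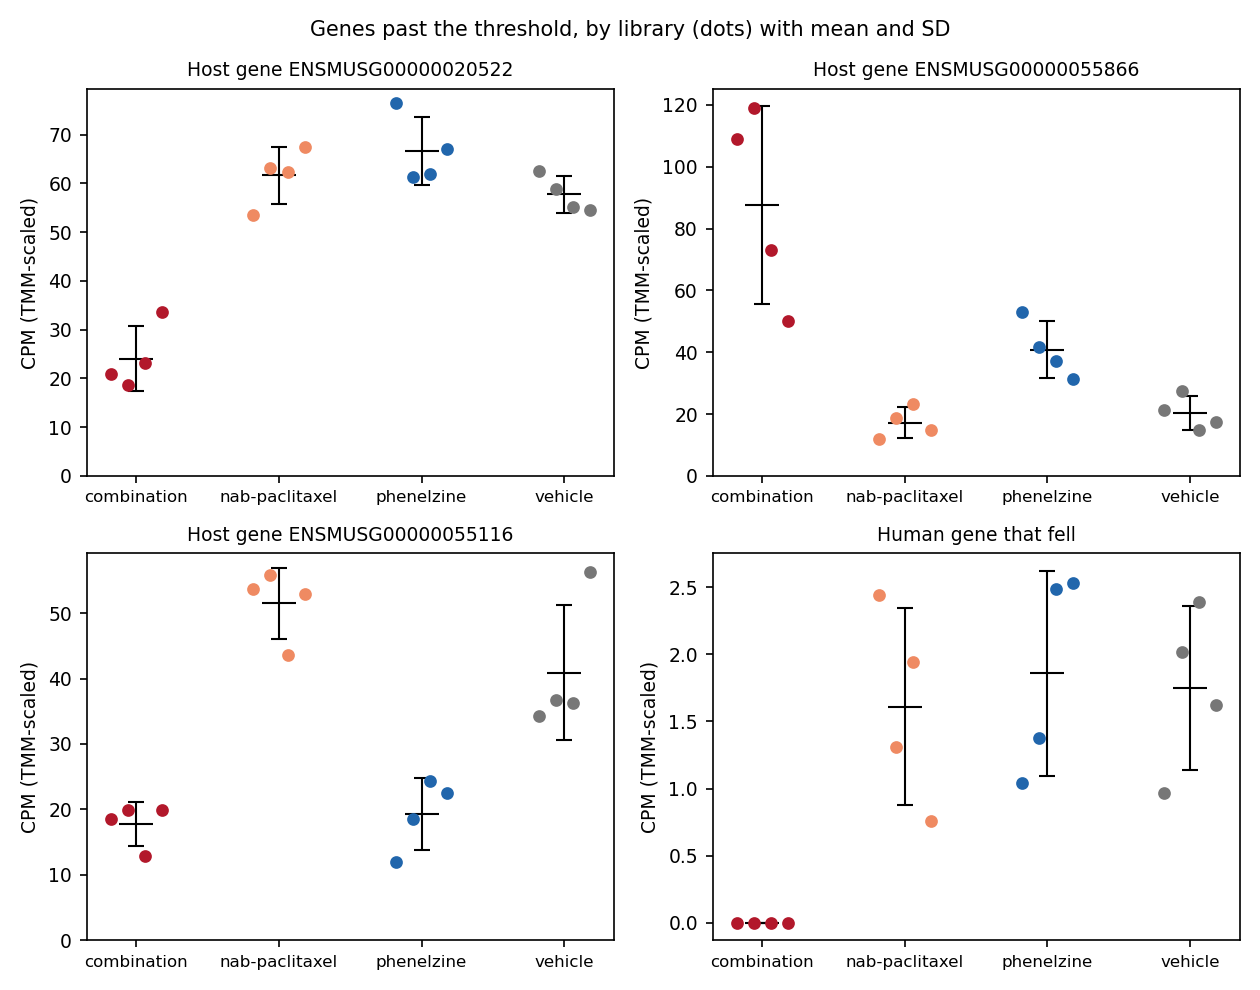
CPM of the 4 genes past the threshold in every library (dots, 4 per group) with the group mean and SD, in the combination, nab-paclitaxel, phenelzine and vehicle groups; each panel has its own vertical axis. Host gene ENSMUSG00000055866 lies at 50.0 to 119 CPM with the combination and 12 to 23.4 CPM with nab-paclitaxel, and the human gene is at 0 in all 4 combination libraries.

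Some genes were detected in every library of one group and in no library of the other. The human matrix listed 58051 identifiers, 34750 of them with a count in any of the 16 libraries. Of these, 40 were at 0 in all 4 combination libraries and above 0 in all 4 nab-paclitaxel libraries, and 3 showed the reverse. The mouse matrix listed 48795 identifiers, 27338 of them with a count. Of these, 5 were at 0 in all 4 combination libraries and above 0 in all 4 nab-paclitaxel libraries, and 12 showed the reverse. The combination libraries had lower human totals (11.1 to 28.8 M, against 15.4 to 32.7 M with nab-paclitaxel), and their mouse totals were 6.6 to 27.4 M, against 8.53 to 22.9 M with nab-paclitaxel. The part of depth in this was not tested. Only 2 of the 40 and 1 of the 3 human genes, and none of the mouse genes, had enough counts to be tested, and the highest group mean among them was that of the human gene described above, 1.61 CPM.

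Most of the largest fold changes did not separate the groups. Among the 20 human genes with the largest absolute log2 fold change, 1 passed the threshold and 2 had groups that did not overlap; among the 20 such mouse genes 0 passed and 1 did not overlap. The largest of the human genes had a fitted log2 fold change of -18.0 (edgeR adjusted p = 1). It was listed at 0 in all 4 combination libraries and in nab-paclitaxel 1, 2 and 4, and at 4980 CPM (a count of 164067) in nab-paclitaxel 3. The largest of the mouse genes, with a fitted value of 11.5 (edgeR adjusted p = 0.851), was at 53.3, 0, 29.1 and 45.4 CPM in combination 1 to 4 and listed at 0 in all 4 nab-paclitaxel libraries. Both were picked after their values were seen. In all, 10 human and 18 mouse genes stood at 0 in one library and at a count of 1000 or more in another library of the same group, and 0 of the 10 human and 12 mouse genes among them that were tested passed edgeR's threshold.

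The host genes that came next by p were mostly higher with the combination; a gene entered where the group with more of it averaged 1 CPM or above. Of these 10 genes, 9 were higher and 1 was lower. In 9 the groups did not overlap, against 3.87% of all mouse genes tested, but picking by p favours such genes. Their edgeR adjusted p ran from 0.0641 to 0.548, so none is called changed by edgeR, whereas DESeq2 called all 10. The gene at rank 4, the first short of the threshold, stood at 53.7, 60.6, 56.5 and 34.3 CPM in combination tumours 1 to 4, against 17.6, 11.4, 13.8 and 20 CPM in nab-paclitaxel tumours 1 to 4 (log2 fold change 1.71, SE 0.273, edgeR adjusted p = 0.0641). Its lowest combination library, number 4, was above every nab-paclitaxel library. At rank 6 the values were 117, 71.8, 198 and 70.9 CPM with the combination, against 23.8, 8.81, 12.9 and 35.1 CPM with nab-paclitaxel (log2 fold change 2.50, SE 0.425, edgeR adjusted p = 0.0841). Here combination 3 was far above the rest of its group. The single lower gene, at rank 8, had 2.88, 4.99, 4.50 and 4.17 CPM with the combination, against 26.3, 28.3, 33.0 and 32.5 CPM with nab-paclitaxel (log2 fold change -2.86, SE 0.503, edgeR adjusted p = 0.0884). Its groups were far apart, and it was the 1 mouse gene called when only the 8 libraries were fitted (edgeR adjusted p = 0.00545).

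The genes at ranks 11 and 12 varied widely among combination tumours. At rank 12 the values were 500, 404, 50.7 and 143 CPM in combination tumours 1 to 4, against 60.9, 47.9, 38.3 and 30.9 CPM in nab-paclitaxel tumours 1 to 4, so that combination 3 fell inside the nab-paclitaxel range. At rank 11 they were 394, 471, 191 and 314 CPM with the combination, against 60.2, 51.5, 83.3 and 72.4 CPM with nab-paclitaxel, with no overlap. Combination 3 was the lowest of its group in both.

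Among the next 10 human genes by p, 6 were higher and 4 lower, and the edgeR adjusted p ran from 0.347 to 1. In 6 the groups did not overlap, against 1.54% of all human genes tested, and here too picking by p favours such genes. The human gene at rank 2 stood at 29.1, 19.2, 33.3 and 25.0 CPM in combination tumours 1 to 4, against 13.7, 12, 16.4 and 12.2 CPM in nab-paclitaxel tumours 1 to 4 (log2 fold change 0.97, SE 0.169, edgeR adjusted p = 0.347). Its groups did not overlap, and neither did those of rank 4. At rank 4 the values were 104, 34.7, 52.3 and 27.3 CPM with the combination, against 23.2, 16.6, 18.9 and 18.4 CPM with nab-paclitaxel (log2 fold change 1.5, SE 0.306, edgeR adjusted p = 0.867). Its log2 fold change was between 0.974 and 1.72 with 1 library left out. At rank 7 the values were 0.732, 0.294, 0.839 and 0.392 CPM with the combination, against 0.535, 20.7, 17.2 and 0.238 CPM with nab-paclitaxel, so that only nab-paclitaxel 2 and 3 were high (log2 fold change -4.13, edgeR adjusted p = 1). The libraries that stood apart include both low ones of nab-paclitaxel, and without those 4 libraries the log2 fold change of this gene was -5.76 (edgeR adjusted p = 0.000132). DESeq2 called the genes at ranks 2, 3, 4 and 7 (adjusted p = 0.0116 for rank 7).

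Whether the same differences appeared with phenelzine without the taxane was asked by setting the phenelzine tumours against the vehicle tumours. These tumours share no library with the comparison above. All 16 libraries share 1 estimate of spread, however, and that estimate also entered the p by which the genes were ranked. The p-values of both comparisons are therefore not independent. ENSMUSG00000055866 stood at 53.1, 41.8, 37.1 and 31.5 CPM in phenelzine tumours 1 to 4, against 21.3, 27.5, 14.9 and 17.4 CPM in vehicle tumours 1 to 4. These groups did not overlap, and the log2 fold change was 1.01 (95% interval 0.383 to 1.63, edgeR adjusted p = 0.773). ENSMUSG00000055116 stood at 11.9, 18.6, 24.3 and 22.5 CPM with phenelzine, against 34.2, 36.7, 36.3 and 56.3 CPM with vehicle, again without overlap (log2 fold change -1.08, 95% interval -1.56 to -0.599, edgeR adjusted p = 0.674). ENSMUSG00000020522 stood at 76.4, 61.4, 61.9 and 67.1 CPM with phenelzine, against 62.6, 58.8, 55.1 and 54.5 CPM with vehicle (log2 fold change 0.208, 95% interval -0.132 to 0.548, edgeR adjusted p = 0.873). In that comparison 0 genes passed edgeR's threshold in either matrix. An unadjusted p under 0.05 was reached by 426 human (2.35%) and 921 mouse genes (6.11%). The other tools were not run on it, and how many of all genes lacked overlap in it was not counted.

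Whether the difference with phenelzine on top of the taxane was unlike that without it was tested as an interaction. No gene passed in edgeR: 0 human genes, with 544 (3%) at an unadjusted p under 0.05, and 0 mouse genes, with 1228 (8.15%). With DESeq2 the interaction passed in 11 human (0.0607%) and 18 mouse genes (0.12%), and with voom in 0 human genes and 1 mouse gene (0.00663%). With 1 library left out edgeR called 1 human gene without nab-paclitaxel 4 and 1 mouse gene without combination 4. The interaction of ENSMUSG00000020522 was a log2 difference of -1.57 (SE 0.226, edgeR adjusted p = 0.0775). Its combination libraries lay below all 12 others, while its phenelzine and vehicle libraries overlapped. That of ENSMUSG00000055866 was 1.35 (SE 0.408, edgeR adjusted p = 0.597) and that of ENSMUSG00000055116 was -0.456 (SE 0.311, edgeR adjusted p = 0.682). The human gene listed at 0 had the lowest adjusted p of its matrix (edgeR adjusted p = 0.0536), short of the threshold.

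Of the next 10 host genes, 7 had the same sign in both comparisons, against 42% of all mouse genes tested. Of the 10, 5 had the same sign and an edgeR unadjusted p under 0.05 without the taxane, against 6.11% of all mouse genes in either direction. Rank 4 averaged 32.3 ± 12.2 CPM with phenelzine and 13.0 ± 2.03 CPM with vehicle (SD, n = 4 each), and rank 6 averaged 55.6 ± 13.9 CPM with phenelzine and 13.9 ± 3.71 CPM with vehicle. Rank 8 averaged 8.41 ± 6.93 CPM with phenelzine and 18.1 ± 8.14 CPM with vehicle. The genes at ranks 5, 11 and 12 had the opposite sign without the taxane. Rank 11 averaged 119 ± 59.3 CPM with phenelzine and 142 ± 102 CPM with vehicle, within the spread of both groups. The interaction had an edgeR unadjusted p under 0.05 in 7 of the 10, against 8.15% of all mouse genes. Of the next 10 human genes, 6 had the same sign in both comparisons, against 46.1% of all human genes tested. Only 1 of them had an edgeR unadjusted p under 0.05 without the taxane, and the interaction reached that in 8 of the 10, against 3% of all. Picking by p in the combination comparison favours a low interaction p.

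**Figure D5:**
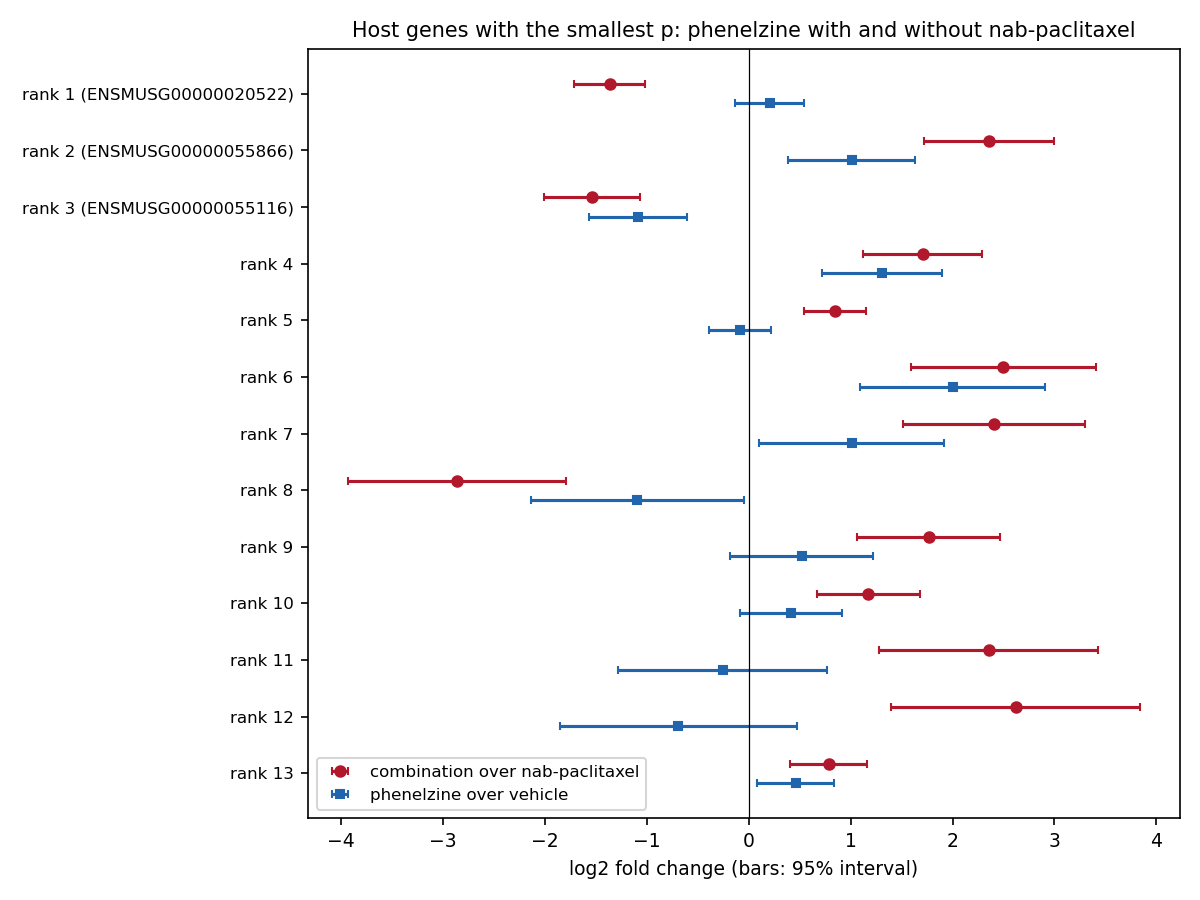
Log2 fold change (horizontal, with approximate 95% intervals) of the 13 host genes with the smallest p, in rank order down the page; red circles are the combination over nab-paclitaxel, by which the genes were ranked, and blue squares phenelzine over vehicle. At ranks 2, 3, 4, 6, 7, 8 and 13 the blue interval lies on the same side of 0 as the red one, and at ranks 1, 5, 11 and 12 the blue point lies on the other side.

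The agreement in sign among these top host genes was not a general one. Of the 833 mouse genes with an unadjusted p under 0.05 in the combination against nab-paclitaxel, 283 (34%) had the same sign in phenelzine against vehicle, against 42% of all mouse genes tested. In human genes it was 227 of 533 (42.6%), against 46.1% of all. Across all genes the fold changes of both comparisons correlated at r = -0.236 (Spearman -0.225) in the mouse and r = -0.0407 (Spearman -0.0797) in the human matrix, genes not being independent replicates. Of the 46 mouse genes called by DESeq2, 23 had the same sign without the taxane, and of voom's 10 it was 8.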

How the data were processed

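The deposited values are whole-number counts per Ensembl gene in 1 human and 1 mouse matrix of the same 16 libraries, made by the authors. The submitters' processing notes name hg38, mm10, Trimmomatic 0.36, HISAT2 2.04, Picard, StringTie and edgeR. How reads were divided between species, the strand setting and the annotation were not given in the sources used here. In the 8 libraries compared, counts of 1, 2, 3 and 4 occurred 6993, 11668, 12274 and 5131 times (human) and 5102, 8064, 8676 and 3666 times (mouse). No library repeated another of its group (chi-square per degree of freedom at least 32.4 and 21.1).

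Each matrix was fitted on its own with edgeR 4.0.16 (R 4.3.3): TMM factors, filterByExpr (minimum count 10), 1 mean per group over all 16 libraries, which share 1 estimate of spread, quasi-likelihood F tests and Benjamini-Hochberg adjustment over all genes tested. Each p-value reflects only the spread among libraries, 1 per mouse. Standard errors are the fold change over the square root of F. Levels are TMM-scaled CPM. Alternatives were DESeq2 1.42.0, limma 3.58.1 voom, RLE factors, no filter, a fit of 8 libraries, the mouse share as a covariate, a replicate block and left-out libraries. The scripts were tested on simulated data. The rule for genes took every gene past the threshold and the next 10 by p with at least 1 CPM in the higher group; its parts that name listed genes, and the 45 gene lists, could not be applied without symbols. The comparison, lists and rule were chosen with earlier results of these data known. The level classes, intervals, genes at 0 and largest fold changes were added after the data were seen.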

Additional observations from a re-analysis of the deposited data

Results flagged for a closer look

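In 18 sets of 4 libraries (the mouse share and the genes past the threshold, by group), 1 library stood far from the other 3 of its group. Vehicle 4 had 56.3 CPM of host gene ENSMUSG00000055116, against 34.2, 36.7 and 36.3 CPM in vehicle 1 to 3, a gap of 0.887 of the group's range. Chance alone marks about 1 in 20 such sets.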

How the results depend on the processing

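For the combination against nab-paclitaxel, 1 human and 3 mouse genes passed. DESeq2 called 10 and 46, voom 0 and 10, and the fit of only the 8 libraries 0 and 1. With the mouse share as a covariate the counts were 1 and 1, and without the 4 libraries that stood apart 6 and 0. RLE factors and no filter gave 1 and 3, the same genes. With the replicate number as a block 0 human genes (lowest edgeR adjusted p = 0.176) and 4 mouse genes passed, the 3 and 1 more. With 1 library left out the counts were 0 to 1 human and 1 to 5 mouse genes: 1 mouse gene without nab-paclitaxel 1 or 4, 5 without combination 4, 2 without any other single one. The interaction, 0 and 0, gave 11 and 18 in DESeq2, 0 and 1 in voom, 1 and 0 with no filter, 4 and 0 without the libraries that stood apart, 0 and 0 with the block, and 0 to 1 in each matrix with 1 library left out. The cause of these differences was not tested.

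The replicate numbers were not taken as pairs, since not every same-numbered pair deviated together. The correlations of deviations for numbers 1 to 4 were 0.504, 0.569, -0.432 and -0.256 in human genes and 0.306, 0.0989, -0.113 and 0.0954 in mouse genes. In human genes combination 1 and 2 correlated best with their own number, and combination 3 and 4 did not. The mouse share differed by 11.8 points with the replicate block (exact sign-flip test, p = 0.375, where 4 pairs allow no p under 0.05). Leaving out 1 library at a time, it differed by 4.12 to 21.7 points. All 383 fold changes of the 24 genes followed kept their direction under these alternatives. The genes were picked by small p in these same libraries, so a kept direction was likely beforehand and is no independent support. Under 1 CPM the 95% interval lay within 2-fold for 6.28% of human and 1.02% of mouse genes.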
